A study of Homo sapiens with 8 samples.

Results

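The 9 neuroendocrine lineage genes followed here are CHGA, CHGB, SYP, NCAM1, INSM1, SOX2, ONECUT2, EZH2 and REST, and the data are the places near them where the kinase mTOR was found on chromatin. A peak was counted for a gene when the deposited annotation named that gene as the nearest one and placed the peak at most 50 kb from its transcription start site (TSS), upstream or downstream. By this rule 7 of the 9 genes had at least 1 peak and 2 genes, CHGB and SYP, had none. The 7 genes held 50 peaks in all, 17 of the 39570 peaks of shFoxA1 R1881, 14 of the 35121 of shFoxA1 EtOH, 10 of the 26074 of shEV R1881 and 9 of the 24948 of shEV EtOH. Peaks that overlapped between libraries were merged, which gave 23 regions.

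mTOR chromatin immunoprecipitation was done in LNCaP, an established human prostate cancer line with luminal features that depends on the androgen receptor. Every culture carried a construct, either shFoxA1, a short hairpin against the pioneer transcription factor FoxA1, or shEV, the empty vector. Every culture was first starved of androgen for 48 h in 2% charcoal-stripped serum. The 4 groups, each 1 immunoprecipitated library, were shFoxA1 with 10 nM of the synthetic androgen R1881 for 24 h, shFoxA1 with the ethanol vehicle (EtOH, 0.1%) for 24 h, shEV with 10 nM R1881 for 24 h, and shEV with EtOH for 24 h. The series has 8 samples, and the 4 input libraries were not analysed here. How far FoxA1 fell was not measured in these binding data. The labels do not say whether the shFoxA1 or shEV line is a pool or a clone.

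Neuroendocrine prostate cancer is a form of the disease that no longer depends on the androgen receptor and that can emerge from adenocarcinoma under hormone therapy. Its cells make the granule proteins chromogranin A (CHGA) and chromogranin B (CHGB), the synaptic vesicle protein synaptophysin (SYP) and the adhesion molecule CD56 (NCAM1), which pathologists stain to recognise it. INSM1, SOX2 and ONECUT2 are transcription factors that drive or accompany the change of lineage, EZH2 is the histone methyltransferase of Polycomb repressive complex 2, and REST is the repressor that keeps neuronal genes silent in other cells. The peak lists hold no RNA or protein level, so a peak near a marker gene says nothing here about whether LNCaP cells expressed it.

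With 1 library a group there is no replicate check and no test of any difference between groups. The 4 lists differ in length, and no read totals accompany them, so depth is unknown and a site missing from a list was not detectable at that list's threshold rather than shown to be free of mTOR. A peak's score is a value from the authors' peak calling, on a scale that the labels and headers leave undefined, and it is used only to place a peak within its own list, as the percentile of the peaks of that list, with tied scores given their mean rank. Of the 50 peaks, 18 scored above the median of their own list: 6 in shFoxA1 R1881, 6 in shFoxA1 EtOH, 2 in shEV R1881 and 4 in shEV EtOH. Between 50% and 58.2% of the peaks within 50 kb of a TSS in each list were annotated to repeats.

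4 promoter stretches are shown because they separate the patterns seen at these genes: REST was under a peak in every list, ONECUT2 only in the lists of the FoxA1 hairpin, EZH2 touched at its edge by 1 peak, and CHGA covered in 1 list. Each is the 250 bases upstream of a start, from RefSeq on GRCh38.p14, the assembly of the files' build hg38. 6 of the 9 genes, with 8 start windows between them, were matched in that table.

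REST lies on the plus strand, chr4:56908660-56908909, and ONECUT2 on the plus strand, chr18:57435124-57435373. Capitals mark the bases under a peak in all 4 lists for REST (197 of 250) and in both shFoxA1 lists for ONECUT2 (239 of 250).
REST: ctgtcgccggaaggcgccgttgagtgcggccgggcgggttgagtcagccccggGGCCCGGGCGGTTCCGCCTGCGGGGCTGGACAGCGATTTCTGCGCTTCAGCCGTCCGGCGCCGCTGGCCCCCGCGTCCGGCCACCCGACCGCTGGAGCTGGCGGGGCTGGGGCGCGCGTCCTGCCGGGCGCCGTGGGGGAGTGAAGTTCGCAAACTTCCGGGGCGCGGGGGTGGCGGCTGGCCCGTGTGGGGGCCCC
ONECUT2: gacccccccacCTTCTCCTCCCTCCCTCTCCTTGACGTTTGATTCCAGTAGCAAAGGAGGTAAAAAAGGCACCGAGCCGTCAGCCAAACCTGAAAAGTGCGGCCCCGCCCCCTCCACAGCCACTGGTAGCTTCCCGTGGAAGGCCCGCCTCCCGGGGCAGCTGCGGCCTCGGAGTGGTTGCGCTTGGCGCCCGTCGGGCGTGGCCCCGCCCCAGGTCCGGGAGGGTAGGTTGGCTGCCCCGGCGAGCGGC

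EZH2 lies on the minus strand, chr7:148884292-148884541, and its capitals mark the 60 bases under the shFoxA1 EtOH peak. CHGA lies on the plus strand, chr14:92922900-92923149, and was covered whole in shFoxA1 EtOH; its capitals mark the cAMP response element, a motif long described in this promoter.
EZH2: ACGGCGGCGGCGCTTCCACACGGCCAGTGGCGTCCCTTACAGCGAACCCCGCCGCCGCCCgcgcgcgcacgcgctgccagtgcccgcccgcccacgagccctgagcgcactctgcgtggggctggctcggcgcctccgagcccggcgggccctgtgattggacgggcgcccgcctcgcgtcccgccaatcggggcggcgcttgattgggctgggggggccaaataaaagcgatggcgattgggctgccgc
CHGA: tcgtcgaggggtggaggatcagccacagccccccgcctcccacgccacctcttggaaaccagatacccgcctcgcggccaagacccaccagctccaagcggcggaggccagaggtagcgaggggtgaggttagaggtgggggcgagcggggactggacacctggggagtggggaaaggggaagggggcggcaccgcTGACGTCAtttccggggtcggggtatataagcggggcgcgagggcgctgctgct

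All 4 stretches are rich in G and C. Over the full windows of 300 bases, which add 50 bases after the start, G and C made up 79.3% in REST, 68.0% in ONECUT2, 74.7% in EZH2 and 69.3% in CHGA, against a median of 58.7% over the 35116 windows of all genes.

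**Figure D1:**
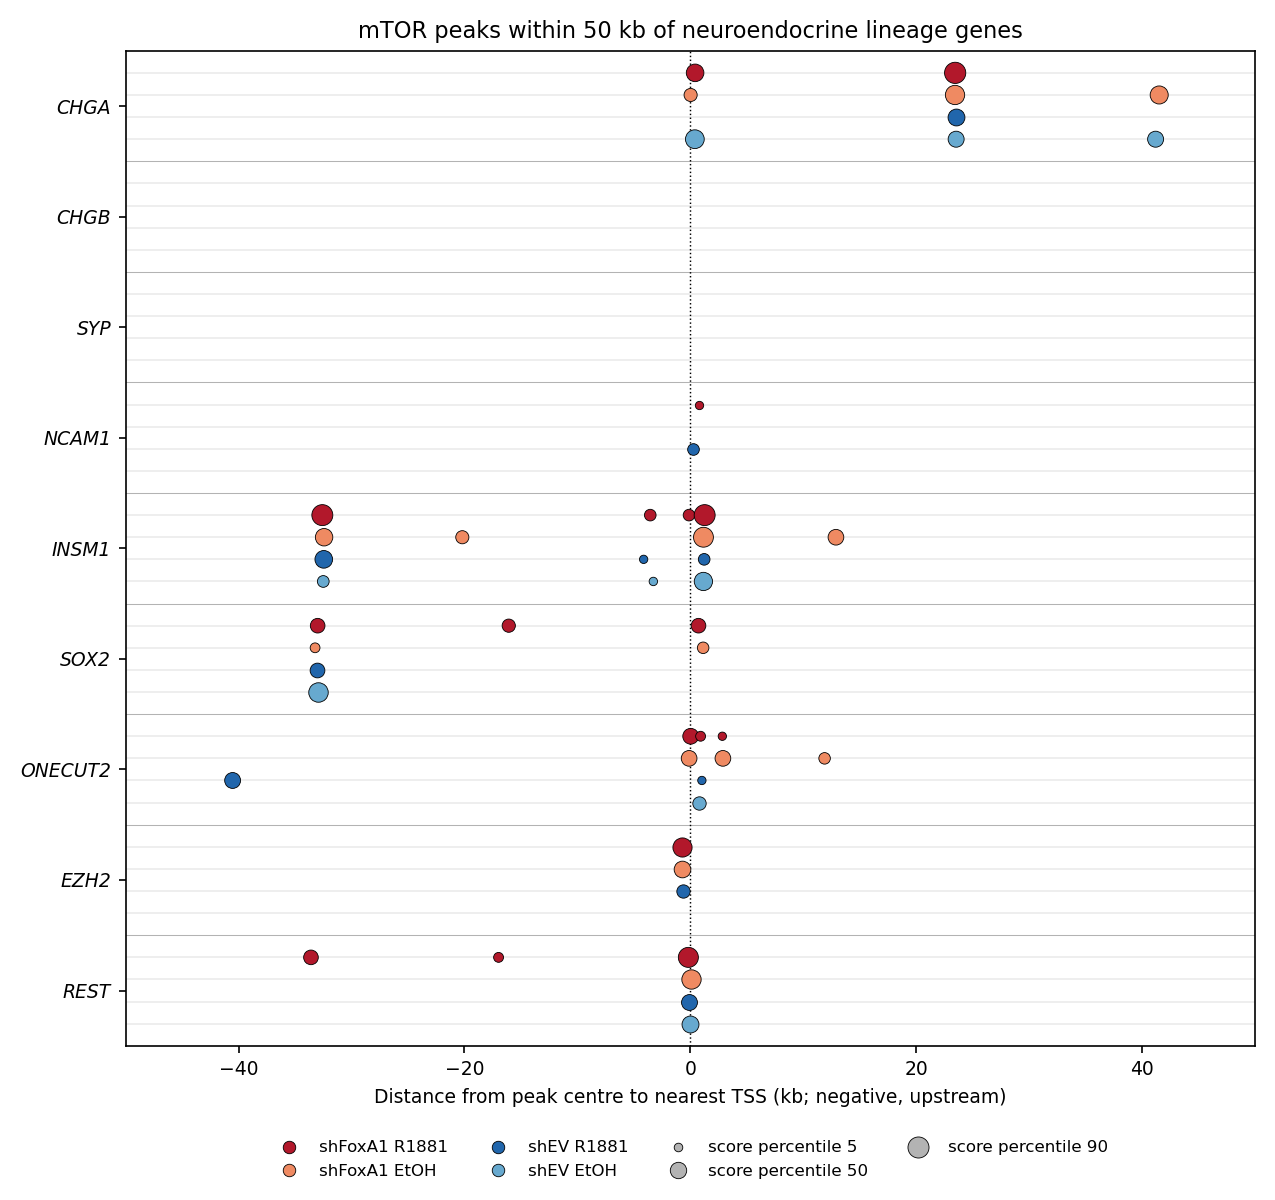
Peaks within 50 kb of each of the 9 genes, with the distance from peak centre to TSS in kb on the horizontal axis (negative, upstream) and 1 line for each gene and library; the area of a point grows with the percentile of its score in its own list. CHGB and SYP are empty, and the points of the other 7 genes gather at the start site and at a few distant positions.

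At the level of genes, 7 of 9 had a peak in shFoxA1 R1881 (77.8%, Wilson 95% interval 45.3 to 93.7), 6 in shFoxA1 EtOH (66.7%, 35.4 to 87.9), 7 in shEV R1881 (77.8%, 45.3 to 93.7) and 5 in shEV EtOH (55.6%, 26.7 to 81.1). These intervals cover counting error only. Among all 20037 protein-coding genes the shares were 51.6%, 49.1%, 37.5% and 36.5% in the same 4 lists. The background value lies inside the interval of the 9 genes in shFoxA1 R1881, shFoxA1 EtOH and shEV EtOH, and below it in shEV R1881. CHGA, INSM1, SOX2, ONECUT2 and REST had a peak in every list. NCAM1 had one assigned to it in both R1881 lists, and EZH2 in all but shEV EtOH.

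Within 2 kb of the TSS the gene counts were 7, 6, 5 and 4 of 9 in shFoxA1 R1881, shFoxA1 EtOH, shEV R1881 and shEV EtOH (77.8, 66.7, 55.6 and 44.4%). Among coding genes the shares were 29.2%, 29.5%, 15.6% and 16.6%. The intervals given above for 7, 6 and 5 of 9 genes start at 45.3, 35.4 and 26.7%, above the coding shares of those lists here. For 4 of 9 no interval was computed. The gene counts rest on 9, 6, 5 and 4 peaks. Every gene with a peak in shFoxA1 R1881 or shFoxA1 EtOH therefore had one near its start, whereas CHGA in shEV R1881 and SOX2 in both shEV lists had distant peaks alone. The 9 genes were picked for their biology, with earlier results of these data known, and no test sets them apart from other genes. The coding genes were not matched to them for the GC content of their promoters.

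CHGA encodes the granule protein that is the usual serum marker of neuroendocrine tumours, and it had 3 regions. At its start (chromosome 14, 92922607 to 92923881) a peak was called in shFoxA1 R1881 (score 74, percentile 59.4), shFoxA1 EtOH (42, percentile 27.7) and shEV EtOH (95, percentile 69.1), and none in shEV R1881. The shFoxA1 EtOH peak was 1152 bp wide and covered the start, while those of shFoxA1 R1881 and shEV EtOH were 606 and 429 bp wide and lay in the first intron. In shEV R1881 the nearest peak to the gene was 10.9 kb away, in an SVA retroposon.

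Further on, 23.5 kb downstream of the CHGA start, a region (92946271 to 92946987) carried a peak in all 4 lists, with scores of 257, 113, 67 and 58 in shFoxA1 R1881, shFoxA1 EtOH, shEV R1881 and shEV EtOH. It stood at percentile 91.8, 74.0, 53.5 and 46.9 of those lists, and the first of these was the highest of any peak at the 9 genes. The last region, at 41.4 kb (92964163 to 92965091), was called in shFoxA1 EtOH (score 84) and shEV EtOH (58) and in neither R1881 list. Both lie in introns of ITPK1, an inositol phosphate kinase gene, so CHGA is the nearest start and not the gene they sit in.

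CHGA also had the peaks closest to the 50 kb limit. Just inside it were the peaks of that last region, at 41536 bp in shFoxA1 EtOH and 41219 bp in shEV EtOH, and just outside it were peaks at 50548 bp in shFoxA1 R1881 (score 175), 50258 bp in shFoxA1 EtOH (94) and 50184 bp in shEV EtOH (34). At 55.7 to 55.8 kb an endogenous retrovirus fragment (MSTA-int) carried a peak in every list, with scores of 398, 361, 157 and 215 in shFoxA1 R1881, shFoxA1 EtOH, shEV R1881 and shEV EtOH. These scores exceed those of any peak within the limit at CHGA in the same list.

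CHGB, the sister granin, and SYP, the vesicle membrane protein, had no peak by the rule. The nearest peaks given to CHGB lay at -68868 bp in shFoxA1 R1881 (score 74) and -68179 bp in shFoxA1 EtOH (34), both in an L1 element. From the CHGB gene body the closest peak of any assignment was 44.8, 51.8, 44.9 and 51.9 kb away in shFoxA1 R1881, shFoxA1 EtOH, shEV R1881 and shEV EtOH, each assigned to the replication helicase gene MCM8. Around SYP the closest peak was 47.6, 47.4, 47.4 and 47.6 kb from the gene, in retroviral sequence assigned to GPKOW, a splicing-factor gene, with scores of 209, 272, 191 and 180. That site was called in all 4 lists and stood at percentile 86.1 to 91.6. At both genes these distances run from the end of the gene farther from its start, so the peaks lie beyond 50 kb of the TSS.

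NCAM1, the gene of the adhesion molecule CD56, had 1 region at its start (chromosome 11, 112961364 to 112962958). A peak was assigned to it in shFoxA1 R1881 (score 20, percentile 4.04) and in shEV R1881 (34, percentile 19.3), both low in their lists. In shFoxA1 EtOH a peak of score 34 at 112962419 to 112962958 overlapped the shFoxA1 R1881 peak but was assigned to the neighbouring LOC101928847, and shEV EtOH had no peak there. Inside the gene, shEV EtOH had a peak of score 147 at 112985057 to 112985575, in an L1 element, that was likewise assigned to LOC101928847. With peaks counted by distance from the start whatever their assignment, 7 of the 9 genes in place of 6 had a peak in shFoxA1 EtOH. In shEV EtOH the number was 6 in place of 5, and in both R1881 lists it stayed at 7. NCAM1 was not among the 6 genes with a RefSeq start window, so its start was worked out from the deposited distances.

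**Figure D2:**
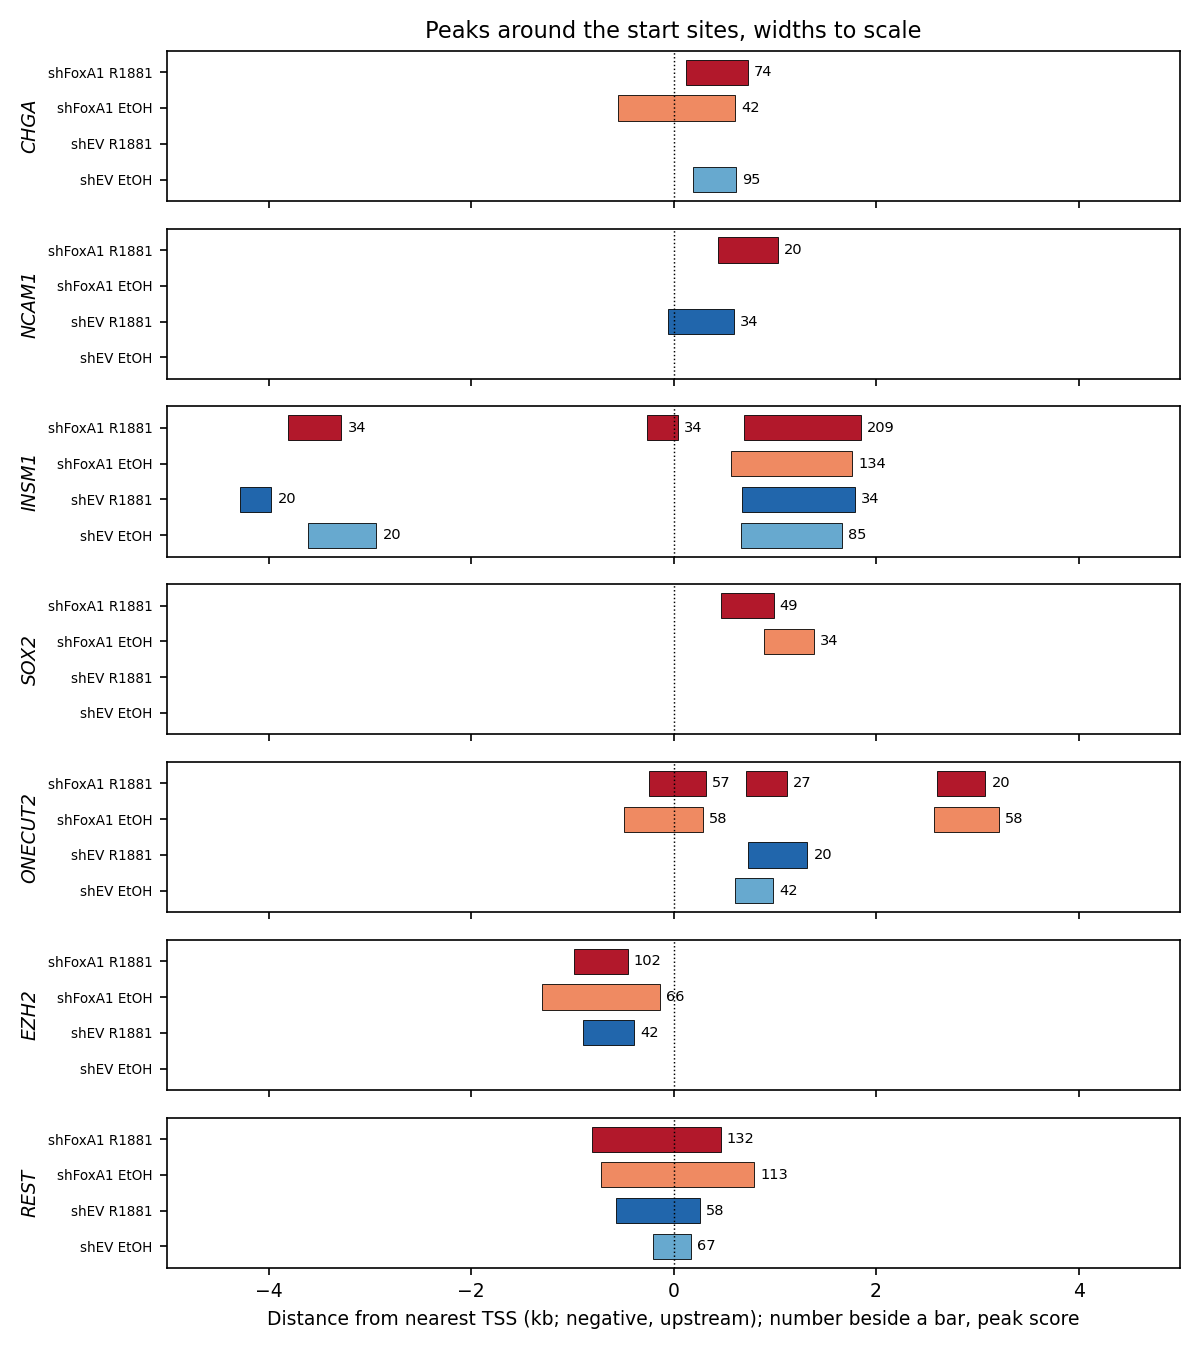
Peaks within 5 kb of the TSS of the 7 genes that had any, with distance in kb on the horizontal axis, bars drawn to the width of the peak around its annotated centre distance, and the authors' score beside each bar. REST and the INSM1 exon are covered in all 4 libraries, and the bars over the ONECUT2 start and inside SOX2 are found with the FoxA1 hairpin alone.

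INSM1, a zinc-finger factor of neuroendocrine differentiation, had the most peaks, 14 in 7 regions. Its single exon (chromosome 20, 20368677 to 20369955) was covered in every list by peaks of 1153, 1194, 1120 and 999 bp in shFoxA1 R1881, shFoxA1 EtOH, shEV R1881 and shEV EtOH. The scores were 209, 134, 34 and 85, which placed the peaks at percentile 89.3, 78.9, 19.3 and 65.0. The same interval was therefore among the stronger sites of both shFoxA1 lists and among the weaker ones of shEV R1881. A second peak over the INSM1 start itself, centred 110 bp upstream, was called in shFoxA1 R1881 alone (score 34).

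Upstream of INSM1 a CpG-rich stretch held low peaks that did not follow either factor. One region (20364298 to 20365169) was called in shFoxA1 R1881 (score 34) and shEV EtOH (20), and a neighbouring one (20363819 to 20364131) in shEV R1881 (20). In the long introns of CFAP61, a ciliary gene, a region 32.5 kb upstream (20335170 to 20335884) was called in all 4 lists over an MLT1J long terminal repeat, with scores of 209, 75, 76 and 34 in shFoxA1 R1881, shFoxA1 EtOH, shEV R1881 and shEV EtOH. Peaks at -20191 bp in an Alu (score 42) and at 12904 bp in another long terminal repeat (58) were called in shFoxA1 EtOH alone. Beyond the limit, an L1PA3 element at -52190 bp in shFoxA1 R1881 (142) and -52114 bp in shFoxA1 EtOH (66) had a peak in no shEV list.

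SOX2, a factor of neural progenitors and of stem cells, had 3 regions. Inside its single exon (chromosome 3, 181712396 to 181713314) a peak was called in shFoxA1 R1881 (score 49, percentile 37.4) and shFoxA1 EtOH (34, percentile 18.6) and in neither shEV list. The closest peaks of shEV R1881 and shEV EtOH lay 32.9 and 32.7 kb from the gene, in a region (181678390 to 181679180) over an L1MB1 element that was called in all 4 lists. There the scores were 49, 27, 50 and 115 in shFoxA1 R1881, shFoxA1 EtOH, shEV R1881 and shEV EtOH, and the shEV EtOH peak stood highest in its list, at percentile 75.5. A CpG-rich site 16.1 kb upstream was called in shFoxA1 R1881 alone (score 41). This site and the L1MB1 element lie in an intron of SOX2-OT, the long noncoding transcript that spans SOX2.

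ONECUT2, a homeodomain factor that acts against the androgen receptor programme, had 5 regions. Its start (chromosome 18, 57434884 to 57435691), the stretch printed above, carried a peak in shFoxA1 R1881 (score 57, percentile 45.6) and shFoxA1 EtOH (58, percentile 44.8) and in neither shEV list. The first intron repeated that pattern at 57437945 to 57438588, with scores of 20 in shFoxA1 R1881 and 58 in shFoxA1 EtOH. In the first exon, about 0.9 kb downstream of the start (57435987 to 57436696), peaks were called in shFoxA1 R1881 (27), shEV R1881 (20) and shEV EtOH (42) and not in shFoxA1 EtOH. They stood at percentile 10.6, 4.0 and 29.2 of those lists. Both shFoxA1 and shEV cells thus had peaks within 2 kb of the ONECUT2 start, and shFoxA1 R1881 had them at both positions. Single-list peaks lay at 11899 bp in shFoxA1 EtOH (34) and, in an L1PA6 element, at -40535 bp in shEV R1881 (58).

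EZH2, the Polycomb methyltransferase, had 1 region, just upstream of its start (chromosome 7, 148884482 to 148885649). It was called in shFoxA1 R1881 (score 102, percentile 72.7), shFoxA1 EtOH (66, percentile 52) and shEV R1881 (42, percentile 28.9). In shEV EtOH the nearest peak to the gene was 57.0 kb away, at the noncoding RNA gene RNY5. The peak centres lay 641 to 719 bp upstream, and no peak reached into the gene body.

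REST, the repressor of neuronal genes, carried a peak over its promoter in every list (chromosome 4, 56907941 to 56909538). The scores were 132, 113, 58 and 67 in shFoxA1 R1881, shFoxA1 EtOH, shEV R1881 and shEV EtOH, at percentile 80.4, 74.0, 46.2 and 54.1, with widths of 1267, 1509, 827 and 374 bp. The peaks overlap around the second of its 2 tabulated starts, whose 300-base window was covered by 300, 300, 300 and 247 bases. With REST and the INSM1 exon, 2 of the 9 regions within 2 kb of a start were called in all 4 lists. Among all regions within 50 kb of a TSS that share was 18.9%, and within 2 kb it was not computed. Further peaks at REST, at -33596 bp (49) and -16979 bp (27), lay in repeats and were called in shFoxA1 R1881 alone.

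**Figure D3:**
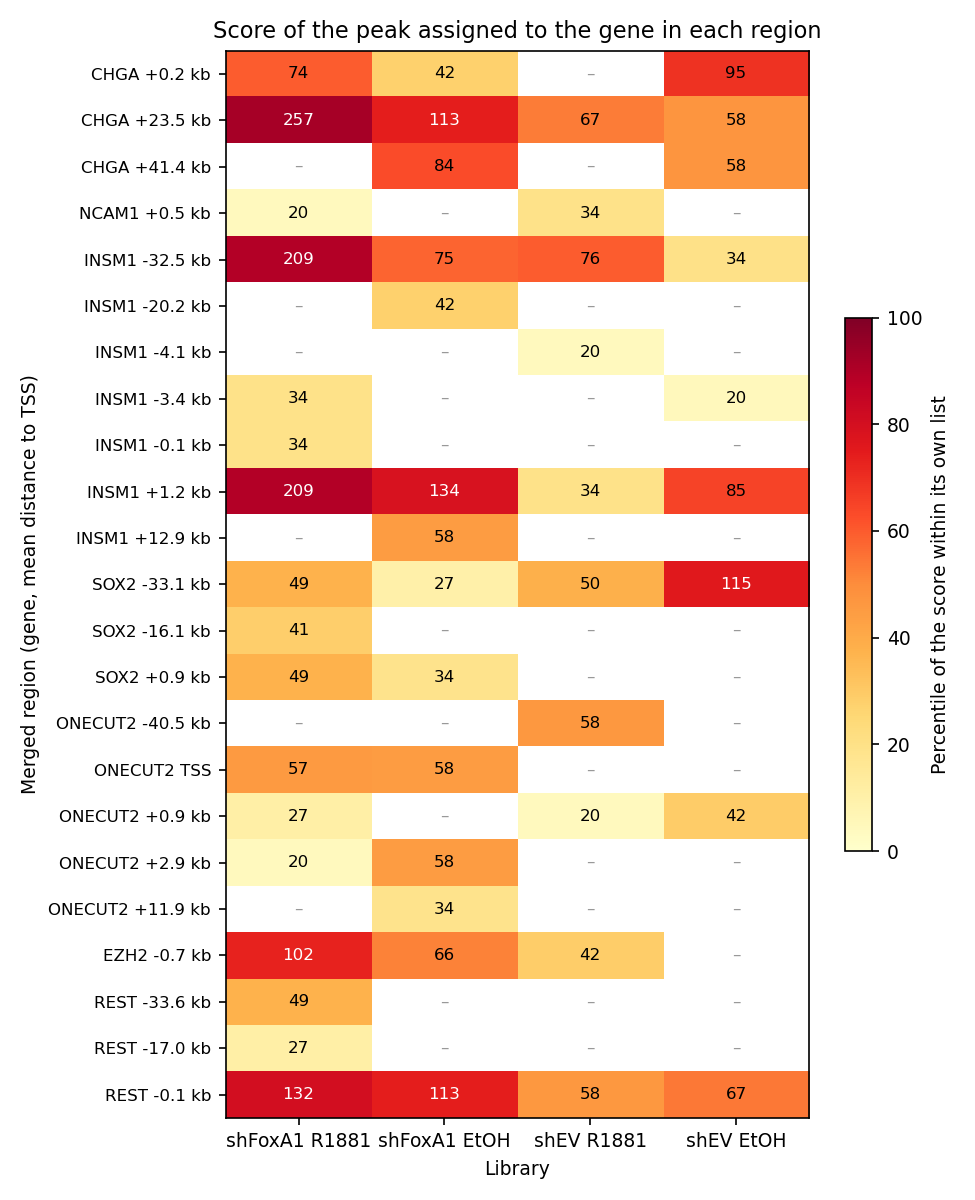
The 23 merged regions (rows, with gene and distance to TSS) in the 4 libraries (columns); the number is the authors' score of the peak assigned to the gene, the colour its percentile within its own list, and a dash marks no such peak. For NCAM1 the dash in shFoxA1 EtOH stands for a peak assigned to a neighbouring gene. 5 rows are filled in all 4 columns.

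Counted by presence, 5 of the 23 regions were in all 4 lists (21.7%, against 18.9% of the 38284 regions formed from peaks within 50 kb of any TSS). They are the CHGA site at 23.5 kb, the INSM1 site in MLT1J, the INSM1 exon, the SOX2 site in L1MB1 and the REST promoter. 3 regions were in both shFoxA1 lists and neither shEV list (13.0%, against 7.83%): the ONECUT2 start, the ONECUT2 intron and the SOX2 exon. 1 region, CHGA at 41.4 kb, was in both EtOH lists and neither R1881 list (4.35%, against 2.79%). No region was in both R1881 lists alone (against 5.37%) or in both shEV lists alone (against 0.794%). 9 regions were in a single list (39.1%, against 47.7%), 4 of them in shFoxA1 R1881, 3 in shFoxA1 EtOH and 2 in shEV R1881. With 23 regions, a difference of 1 or 2 regions would bring each of these shares to about the background.

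The androgen comparison asks which peaks appear or disappear when R1881 replaces the vehicle. A gained peak is one with no overlap of at least 1 bp in the other list, and a lost peak is the converse. In shFoxA1 cells 6 of 17 peaks were gained (35.3%, against 44.1% of all peaks within 50 kb of a TSS) and 4 of 14 lost (28.6%, against 35.8%). The gained peaks lay at INSM1 (2), REST (2), SOX2 and ONECUT2, and the lost ones at INSM1 (2), CHGA and ONECUT2. In shEV cells 4 of 10 were gained (40%, against 45.9%) and 3 of 9 lost (33.3%, against 42.1%). The gained peaks lay at NCAM1, INSM1, ONECUT2 and EZH2, and the lost ones at CHGA (2) and INSM1. The CHGA site at 41.4 kb was lost in both pairs, which share no library, and no region was gained in both. The shares of the 9 genes lie near the background in both pairs and both directions.

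INSM1 had 1 region with opposite calls in the pairs. The CpG-rich region 3.4 kb upstream was gained with R1881 in shFoxA1 cells and lost with R1881 in shEV cells. The difference was not tested, and both scores, 34 in shFoxA1 R1881 and 20 in shEV EtOH, were at or below percentile 19.2 of their lists.

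The knockdown comparison asks which peaks appear or disappear when the FoxA1 hairpin replaces the empty vector. In R1881, 9 of 17 peaks were gained (52.9%, against 54.2%) and 2 of 10 lost (20%, against 26.1%). The gained peaks lay at INSM1 (2), ONECUT2 (2), REST (2), SOX2 (2) and CHGA, and the lost ones at INSM1 and ONECUT2. In EtOH, 7 of 14 were gained (50%, against 50.8%) and 2 of 9 lost (22.2%, against 26.2%). The gained peaks lay at ONECUT2 (3), INSM1 (2), SOX2 and EZH2, and the lost ones again at INSM1 and ONECUT2, though at other sites. At these genes the FoxA1 hairpin went with more gained than lost peaks, as it did over all peaks of these longer lists.

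List length moves with that balance. When each list was cut by score to the length of the shortest, 24948 peaks with ties kept, the R1881 counts became 4 gained and 4 lost (backgrounds 39.8% and 35.2%) and the EtOH counts 5 gained and 3 lost (40.6% and 32.5%). Of the 3 regions shared by the shFoxA1 lists alone, the ONECUT2 start kept that pattern, while the ONECUT2 intron and the SOX2 exon were each left in 1 shFoxA1 list. The ONECUT2 exon then became a region of both shEV lists alone, because its shFoxA1 R1881 peak fell below the score limit.

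Peaks at these genes differed with distance from the TSS, in ranges that overlapped. The 24 peaks within 2 kb of a TSS had a GC content of 60.2 to 79.9% (median 69.7) and a CpG content of 7.06 to 14.7% (median 10.2), and none was annotated to a repeat. The 26 peaks beyond 2 kb had 36.0 to 67.2% GC (median 52) and 0 to 9.89% CpG (median 1.38), and 16 of them were annotated to repeats, 4 in each list. Those 16 repeat peaks scored 27 to 209 and included all 4 peaks of the INSM1 MLT1J region and of the SOX2 L1MB1 region. How uniquely reads map to these elements was not assessed. Repeats were read from the annotation label of a peak, so a peak labelled promoter, exon or CpG could not count as a repeat. The highest values beyond 2 kb, 67.2% GC and 9.89% CpG, belonged to an INSM1 peak 3.4 kb upstream that was not in a repeat. Over all peaks within 50 kb of a TSS, 50.8, 50, 58.2 and 58.1% were annotated to repeats in shFoxA1 R1881, shFoxA1 EtOH, shEV R1881 and shEV EtOH. That share was not split by distance. Peaks within 2 kb of any TSS had a median GC content of 62.9, 64.4, 62.5 and 64.0% in shFoxA1 R1881, shFoxA1 EtOH, shEV R1881 and shEV EtOH.

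**Figure D4:**
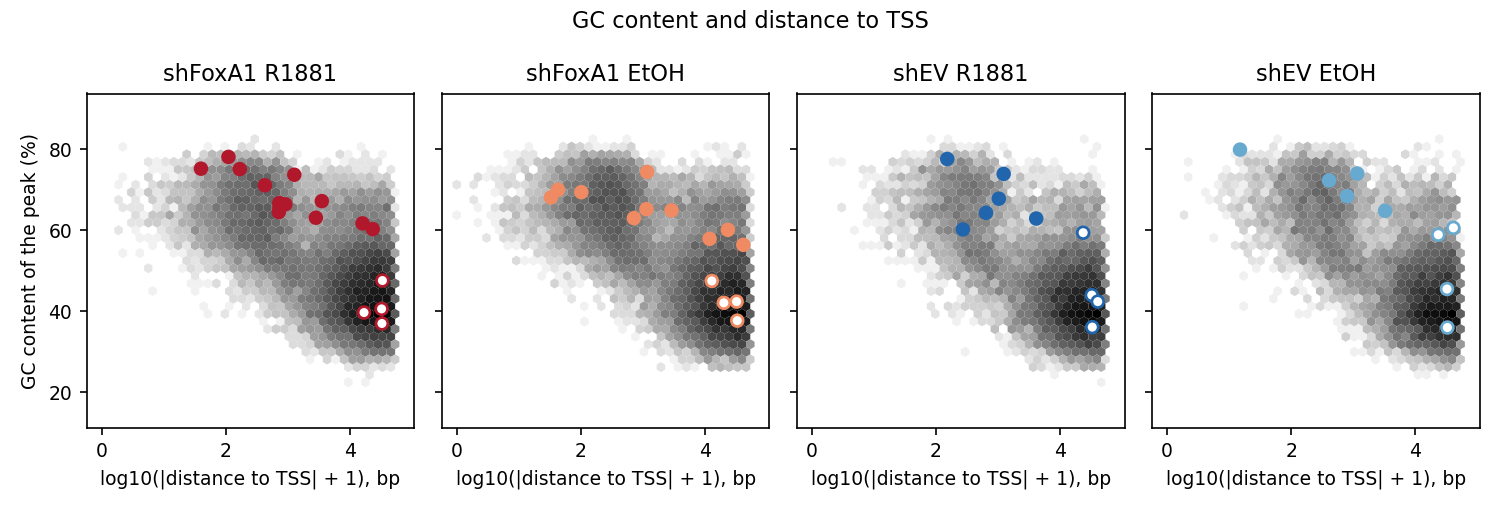
GC content of each peak (percent) against the base-10 log of its absolute distance to the TSS plus 1 bp, in 4 panels, 1 for each library. Grey hexagons are all peaks within 50 kb of a TSS, shaded by the log of their number; coloured points are the peaks at the 9 genes, open where the peak is annotated to a repeat. Points near the start are GC-rich, and distant points reach from low values, where most of the repeats lie, into that GC-rich range.

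The 8 promoter windows of 300 bases were searched on both strands for short motifs. The right-hand part of the REST element, GGACAG, was found in 2 of 8 windows, 1 of REST and that of ONECUT2, and in 20.5% of all 35116 windows. The left-hand part, CAGCACC (7.75% of all windows), was in none of the 8, nor were both parts spaced by 2 to 4 bases (0.0683%). The androgen receptor monomer site AGAACA (14.8%), the palindrome of AGAACA and TGTTCT with 3 bases between (0.00285%), the forkhead motifs TGTTTAC (3.42%) and TGTTTGC (3.89%), and the E-box CACGTG (7.26%) were not in these windows. The cAMP response element TGACGTCA, searched for after the CHGA stretch had been read, was in the CHGA window and in 1.85% of all windows. These are matches of letters and show no binding.

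3 further lists place the 9 genes among their pathways. Of 40 other neuroendocrine genes, 23 had a peak within 50 kb in shFoxA1 R1881 (57.5%), 24 in shFoxA1 EtOH (60.0%), 19 in shEV R1881 (47.5%) and 19 in shEV EtOH (47.5%), each above the share of coding genes. The lower bounds of their Wilson intervals, 42.2, 44.6, 32.9 and 32.9%, lie below those shares. These genes held 38, 43, 28 and 30 peaks in shFoxA1 R1881, shFoxA1 EtOH, shEV R1881 and shEV EtOH.

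Most of the highest scores among those 40 genes lay in retroviral repeats. DDC, which makes dopamine and serotonin, had a peak over a MER11B element 18 kb upstream with scores of 1096, 1022, 490 and 840 in shFoxA1 R1881, shFoxA1 EtOH, shEV R1881 and shEV EtOH. UCHL1, a neuronal ubiquitin hydrolase, had one 37.7 kb downstream with scores of 580, 860, 636 and 491. RET, a receptor tyrosine kinase, and SNAP25, a protein of vesicle fusion, also had their best peaks in long terminal repeats, and the best peak of the neuronal RNA-binding gene ELAVL3 lay at the end of its neighbour ZNF653. All 5 sites were called in the 4 lists. Sites in both shFoxA1 lists alone were found at the starts of POU3F2, the factor BRN2, and of PEG10, a retrotransposon-derived gene, and at -19.9 kb from DDC. The FOXA2 start was in both EtOH lists alone (49 in shFoxA1 EtOH, 34 in shEV EtOH). A second FOXA2 site, at 0.851 kb, was in shFoxA1 R1881 (20) and shEV EtOH (42). Sites at PEG10 (26.9 kb) and at the endocrine factor NEUROG3 (-4.51 kb) were in both R1881 lists alone.

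**Figure D5:**
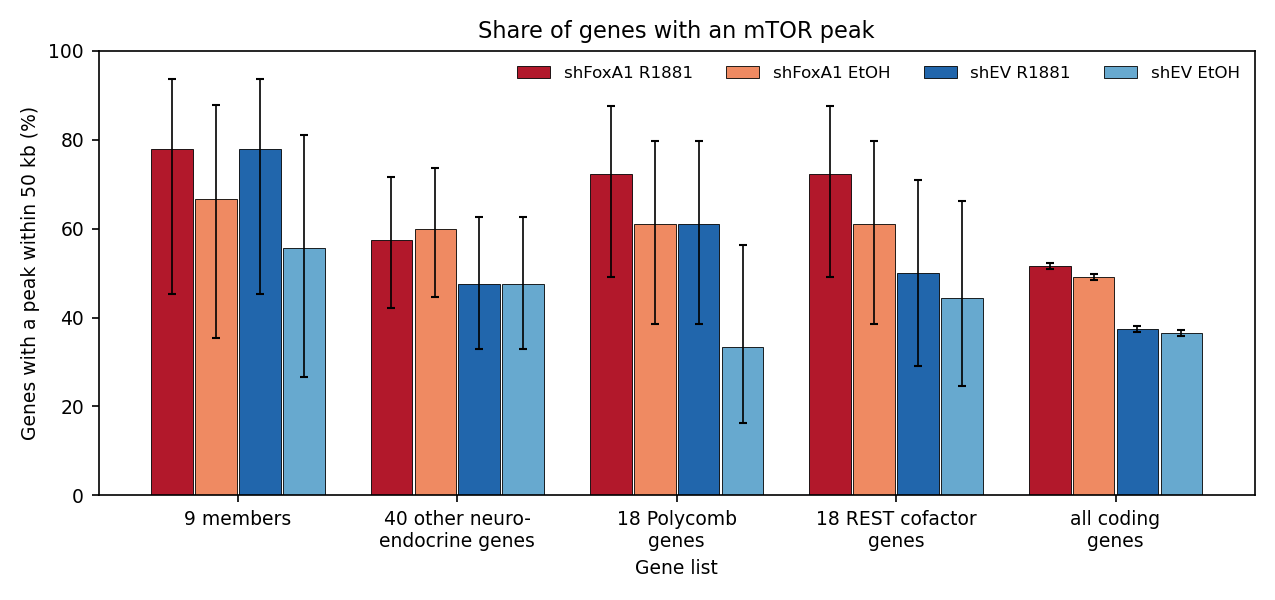
Percent of genes with a peak within 50 kb for the 9 genes, the 3 further lists and all coding genes, with 1 bar for each library and Wilson 95% intervals, which cover counting error only. The intervals of the 9 genes and of the 3 lists are wide, and all 4 libraries overlap within each of them.

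The Polycomb list of 18 genes leaves out EZH2 itself and holds its partners, but also the demethylases KDM6A and KDM6B. In shFoxA1 R1881, shFoxA1 EtOH, shEV R1881 and shEV EtOH, 13, 11, 11 and 6 of the 18 had a peak (72.2, 61.1, 61.1 and 33.3%). Among coding genes the shares were 51.6%, 49.1%, 37.5% and 36.5%. The Wilson intervals were 49.1 to 87.5, 38.6 to 79.7, 38.6 to 79.7 and 16.3 to 56.3%, and the share of coding genes lay below the interval in shEV R1881 and inside it in the other lists. Counted around the start whatever the assignment, the numbers were 14, 13, 13 and 11. The share of coding genes under this looser rule was not computed, so those numbers have no background here. RNF2, the ubiquitin ligase of complex 1, had its best peak in a long terminal repeat 18 kb upstream in all 4 lists, and AEBP2 and MTF2, accessory subunits of complex 2, had theirs at their starts. Sites in both shFoxA1 lists alone lay at the starts of RNF2 and of CBX8, a reader of the Polycomb mark, at a second CBX8 site, and at 2 sites in KDM6B, a demethylase that removes the mark. JARID2, another accessory subunit, had a promoter site in all 4 lists, with scores of 122, 84, 58 and 85 in the same order. A site at another of its starts was in both EtOH lists alone (49 in shFoxA1 EtOH, 67 in shEV EtOH). An intronic JARID2 site at 44.5 kb was in both R1881 lists alone. The best JARID2 peak, with a score of 164 in shFoxA1 R1881, belongs to that intronic site. Sites of MTF2 and of the demethylase KDM6A were in both EtOH lists alone, and 1 at the core subunit EED in both R1881 lists alone.

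REST silences genes through corepressors. The REST cofactor list of 18 genes also holds genes that are not corepressors, such as USP7. In shFoxA1 R1881, shFoxA1 EtOH, shEV R1881 and shEV EtOH, 13, 11, 9 and 8 of the 18 had a peak (72.2, 61.1, 50 and 44.4%). Among coding genes the shares were the same 51.6%, 49.1%, 37.5% and 36.5%. The Wilson intervals, 49.1 to 87.5, 38.6 to 79.7, 29.0 to 71.0 and 24.6 to 66.3%, hold the share of coding genes in every list. The start of RCOR3, a member of the CoREST family, had scores of 2621, 2082, 1099 and 1325, at percentile 99.1 or more in each list, where the REST promoter reached at most 80.4. The deacetylase HDAC1 also had a peak at its start in all 4 lists, with scores of 466, 442, 214 and 263. SIN3B, a scaffold of deacetylase complexes, had 4 sites in all 4 lists, and the one in a simple repeat 12.1 kb downstream scored 3539, 322, 983 and 169. A site at the SIN3B start and one at -23.7 kb from USP7, a deubiquitinase, were in both R1881 lists alone. Sites at the start of HMG20B and 3.83 kb into KDM1A, both parts of the CoREST complex, were in both shFoxA1 lists alone. No such pattern was tested. The neuroendocrine, Polycomb and REST cofactor genes had 3, 5 and 2 regions in both shFoxA1 lists alone. They had 16, 6 and 10 in all 4 lists. Of all regions within 50 kb of a TSS, 7.83% had the first pattern and 18.9% the second. Each had 2 regions in both R1881 lists alone, a pattern of 5.37% of all regions. The neuroendocrine genes had 1 and the Polycomb genes 3 in both EtOH lists alone, a pattern of 2.79%.

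Gained and lost peaks of the 3 lists were counted in the same way, against the backgrounds already given for each pair, and none of these counts was tested. With R1881 in shFoxA1 cells 13 of 38 peaks of the neuroendocrine list were gained and 18 of 43 lost, 12 of 27 and 9 of 24 for the Polycomb list, and 9 of 25 and 2 of 18 for the REST cofactors. The shares were 34.2 and 41.9%, 44.4 and 37.5%, and 36 and 11.1%, against 44.1 and 35.8% of all peaks within 50 kb of a TSS. With R1881 in shEV cells the counts were 10 of 28 gained and 12 of 30 lost, 7 of 13 and 6 of 12, and 6 of 18 and 4 of 16. These make 35.7 and 40%, 53.8 and 50%, and 33.3 and 25%, against 45.9 and 42.1%. For shFoxA1 against shEV in R1881 the counts were 17 of 38 and 7 of 28, 17 of 27 and 3 of 13, and 9 of 25 and 2 of 18. These make 44.7 and 25%, 63 and 23.1%, and 36 and 11.1%, against 54.2 and 26.1%. In EtOH the counts were 23 of 43 and 10 of 30, 13 of 24 and 1 of 12, and 5 of 18 and 4 of 16. These make 53.5 and 33.3%, 54.2 and 8.33%, and 27.8 and 25%, against 50.8 and 26.2%.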

How the data were processed

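Per the labels, chromatin bound by mTOR was sequenced as paired-end 150 bp reads. Per the submitters' processing notes the build was hg38; the notes name HOMER 4.11.1, deepTools 3.5.0, MACS2, Picard 2.0.1, BWA 0.7.12 and Trimmomatic 0.36 with no role. Per the file headers each list is a HOMER annotation of 1 library's peaks; the calling threshold and control are not stated there. The deposited peak score is the authors' own value. The deposited fractions of GC and CpG were printed as percentages. Nearest gene and distance to TSS were used as deposited.

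Peaks on chromosomes 1 to 22, X and Y were used, in Python 3.11.15 with pandas 2.3.3, NumPy 2.4.6 and SciPy 1.17.1. A shared peak overlaps by at least 1 bp, and overlapping peaks of the 4 lists were merged into regions. The overlap code was tested on simulated intervals. Gene names, gene bodies and promoter sequences came from RefSeq GRCh38.p14. The 9 genes and the 3 further lists were chosen with earlier results of these data known. All 9 genes were named with every region. From a further list, the genes with the 3 highest best scores in any library were named. Those with a site in exactly both libraries of a treatment or construct were named as well. No p-value is given, since each group is 1 library and precision rests on that number.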

Additional observations from a re-analysis of the deposited data

Results flagged for a closer look

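1 region was picked out because its calls went opposite ways with R1881 in the shFoxA1 and shEV cells. The CpG-rich region 3.4 kb upstream of INSM1 (chromosome 20, 20364298 to 20365169) had a peak in shFoxA1 R1881 (score 34) and none in shFoxA1 EtOH, and no peak in shEV R1881 against one in shEV EtOH (score 20). The difference between the 2 pairs was not tested. A shEV R1881 peak of score 20 ended at 20364131, within 500 bp of this region, so with a gap of at most 500 bp counted as shared the region was no longer missing from shEV R1881.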

How the results depend on the processing

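Of 232 recomputed counts, 169 stayed within 1.5 times the reported value, and 63 did not. All 14 counts tried with an overlap of 50% of the shorter peak stayed. In lists below the order is shFoxA1 R1881, shFoxA1 EtOH, shEV R1881 and shEV EtOH. At 10 kb in place of 50 kb, peaks at the 9 genes numbered 11, 7, 6 and 5 in 12 regions, 2 in all 4 lists and 0 in both EtOH lists alone; R1881 in shFoxA1 cells gave 3 gained and 0 lost, shFoxA1 against shEV gave 1 lost in R1881 and 4 gained in EtOH, and neuroendocrine list genes with a peak numbered 14 in shFoxA1 R1881, 7 in shEV R1881 and 9 in shEV EtOH. At 100 kb, 5 peaks were lost with R1881 in shEV cells and 5 regions were in both shFoxA1 lists alone. With gaps up to 500 bp counted as shared, shFoxA1 against shEV lost 1 peak in R1881 and 1 in EtOH. With lists cut to the shortest length, shFoxA1 R1881 kept 10 peaks, R1881 gained 3 in shFoxA1 cells, shFoxA1 against shEV in R1881 gave 4 gained and 4 lost, and 1 region was in both shFoxA1 lists alone and 1 in both shEV lists alone. Without repeats, 6 peaks were left in shEV R1881 and 5 in shEV EtOH, 2 were lost with R1881 in shFoxA1 cells, 1 was lost in shFoxA1 against shEV in R1881, 2 regions were in all 4 lists and 0 in both EtOH lists alone, with 8 and 12 neuroendocrine list genes in shEV R1881 and shEV EtOH and 7 Polycomb genes in shEV R1881. With each list cut to its top 10000 peaks by score, ties kept, peaks numbered 4, 3, 1 and 3, at 3, 3, 1 and 3 genes, in 6 regions, 0 in all 4 lists, 0 in both EtOH lists alone and 1 in both R1881 lists alone; R1881 gave 1 gained and 0 lost in shFoxA1 cells and 1 gained in shEV cells, shFoxA1 against shEV gave 3 gained and 0 lost in R1881 and 2 gained in EtOH, and genes with a peak numbered 11, 11, 12 and 11 for the neuroendocrine list, 5, 4 and 5 for the Polycomb list and 4, 6 and 4 for the REST cofactors in the first 3 libraries. RefSeq gave the starts of 6 of the 9 genes and of 60 genes of the further lists. Starts of 3 and 14 others were worked out from the deposited distances. For 2 genes of the further lists there was no start, so they could not count. With peaks counted around these starts whatever gene they were assigned to, 8 regions were in all 4 lists and 11 Polycomb genes had a peak in shEV EtOH. No background over all coding genes or regions was computed under this rule. The cause was not tested, beyond the fewer peaks that each stricter setting leaves. No paired analysis was possible because each group is 1 library. Depth is unknown, so a missing peak limits every count of lost or gained sites.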
